A study of Homo sapiens with 12 samples.

Results

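The olfactory receptor genes of the human genome were examined as a set of genes whose chromatin is mostly closed outside the nose. The set was chosen by name and by counts: the symbol had to be OR followed by a family number, letters and a member number, the description had to lack the word pseudogene, and the raw ATAC-Seq counts summed over all 12 samples had to reach 12. Of the 52889 gene entries of the count table, 403 had a symbol of this form, 56 of these were described as pseudogenes, and 196 of the remaining 347 stayed below the sum of 12. This left 151 genes. The rule used the total over all samples and no contrast between groups, but the deeper samples weigh more in such a total, so it favours genes counted in the d28 and d3 samples. The sums ran from 12 to 126 with a median of 21, 16 of the genes had exactly 12 counts, and 14 genes with 11 counts lay just outside.

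ATAC-Seq (assay for transposase-accessible chromatin with sequencing) measures open chromatin by the places at which a transposase can insert adapters into the DNA of isolated nuclei. The cells were HEK293T, an aneuploid human embryonic kidney line that carries the SV40 large T antigen, transfected with vectors of the Sleeping Beauty system. There were 4 groups with 3 biological replicates each. Mock cells carried the empty inducible vector pSBTet-GP, d0 cells expressed the fusion protein MLL-AF4 constitutively, and d3 cells expressed MLL-AF4 and in addition the reciprocal fusion protein AF4-MLL, which doxycycline (1 µg/ml) had switched on during 48 h. In the study's cell model MLL-AF4 was stably transfected and the AF4-MLL vector transiently, and blasticidin was given together with doxycycline. By that description d3 differs from d0 also by this transfection and this drug, and d28 cells had both earlier. The d28 cells were described as still expressing MLL-AF4 and as having been without AF4-MLL for 25 days, since its vector was no longer selected for. Whether the vector was lost cannot be read from the counts used here, since those of KMT2A (given last) mix transgene and gene reads. By RT-PCR and by red fluorescent cells, the study reported that AF4-MLL diminished in its cell model after the induction. MLL is the gene KMT2A, a histone methyltransferase, and AF4 is AFF1, a subunit of the machinery for transcription elongation. The labels describe d28 cells by the same genotype as d0 cells, so their earlier AF4-MLL induction comes from the description of the study, and the sources used here do not give a harvest day for Mock cells. The cells are 1 line with transgenes under vector promoters and not blood cells, in which these fusions cause leukemia.

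Olfactory receptors are G protein-coupled receptors of the sensory neurons of the nose, and the family is the largest in the genome. Each neuron expresses 1 receptor gene from 1 allele, while the other receptor genes lie in heterochromatin marked by methylated histone H3 lysine 9 and bound by HP1 proteins. In most other tissues most of the family is silent, and its expression in the cells used here was not tested. The genes lie in clusters on many chromosomes, with class I receptors (families 51 to 56) in a single cluster on chromosome 11 beside the beta-globin genes and class II receptors in all the other clusters. The reads of such a family were therefore taken as a gauge of closed chromatin, and the study asked how the fusion proteins change the accessibility of chromatin, so counts over these genes were compared between the 4 groups.

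The chosen genes had upstream sequences of a kind that differs from those of active housekeeping genes, and 4 of them are printed to show it, 3 from receptor genes that are among the 6 with the highest normalized counts and 1 from the ribosomal protein gene RPL27A, which lies on chromosome 11 as OR52K1 does. Each is the stretch of 250 bases before the RefSeq gene start, 5′ to 3′ on the plus strand of GRCh38.p14, and capitals mark each CG dinucleotide, the site of DNA methylation. OR52K1 (class I) lies at chr11:4482396-4482645, OR2H2 in the extended MHC region at chr6:29584871-29585120, OR4D1 at chr17:58148134-58148383 and RPL27A at chr11:8682542-8682791.
OR52K1: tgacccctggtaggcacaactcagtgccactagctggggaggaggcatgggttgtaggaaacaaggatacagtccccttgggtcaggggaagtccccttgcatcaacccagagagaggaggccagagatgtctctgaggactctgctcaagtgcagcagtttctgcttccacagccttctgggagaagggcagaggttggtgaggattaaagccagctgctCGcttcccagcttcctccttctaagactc
OR2H2: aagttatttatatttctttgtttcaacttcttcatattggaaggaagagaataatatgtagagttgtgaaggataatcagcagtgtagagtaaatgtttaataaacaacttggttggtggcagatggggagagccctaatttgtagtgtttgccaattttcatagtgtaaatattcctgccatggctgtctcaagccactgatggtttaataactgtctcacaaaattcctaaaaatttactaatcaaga
OR4D1: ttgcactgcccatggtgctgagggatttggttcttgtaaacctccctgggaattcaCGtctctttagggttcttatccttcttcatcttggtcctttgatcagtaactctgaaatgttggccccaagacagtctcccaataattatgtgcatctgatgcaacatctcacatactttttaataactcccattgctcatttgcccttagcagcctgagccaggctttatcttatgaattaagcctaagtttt
RPL27A: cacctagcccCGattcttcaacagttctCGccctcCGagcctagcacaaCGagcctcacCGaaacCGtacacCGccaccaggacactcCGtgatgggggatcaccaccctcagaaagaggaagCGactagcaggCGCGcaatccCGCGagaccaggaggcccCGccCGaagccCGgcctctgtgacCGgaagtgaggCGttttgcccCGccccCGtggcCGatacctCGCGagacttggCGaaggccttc
The stretch of RPL27A held 24 CG dinucleotides, those of OR52K1 and OR4D1 held 1 each and that of OR2H2 held 0. Upstream sequences were at hand for 121 of the 151 receptor genes. The shortest span of the 151 genes was 918 bp. Where a span holds only the coding part, the stretch before it may not lie at a start of transcription, which was not checked. Their median GC content was 40.4% (quartiles 36.8% and 46.0%), against 58.0% over all 27305 promoters of the table and 59.6% over 66 ribosomal protein genes. The median number of CG dinucleotides was 1, against 11 over all promoters and 20 over ribosomal protein genes, and 25.6% of the receptor stretches had none, against 6.39% of all promoters. The motif TAATTA, a core of homeodomain sites such as those of LHX2, occurred on either strand in 19.8% of the receptor stretches, as in that of OR4D1, and in 4.49% of all promoters of this length. It occurred in 21.5% of those of receptor genes below the floor of 12 counts. The motif CCCNNGGG, a core of EBF1 sites, occurred in 12.4% of the receptor stretches against 16.6% of all promoters, as in that of OR52K1. TATAAA occurred in 24.0% against 11.1%, as in that of OR2H2. TAATTA and TATAAA hold only A and T, of which the receptor stretches have more, and the rates were not adjusted for this. TAATTA and CCCNNGGG read the same on both strands, TAATTA and TATAAA can share letters where they meet, and a match is a run of letters and not a bound site. GC content and the total count of a gene were only weakly related across the 121 genes (Spearman's rho 0.18, genes that share libraries).

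The data behind these genes were thin. The 12 samples held between 257857 and 1116385 counts outside the mitochondrial genome, and mitochondrially encoded genes took 26.8%, 44.0%, 39.4% and 65.5% of all counts in Mock, d0, d3 and d28 samples. Nuclear copies of mitochondrial genes took up to 3.43% of the remaining counts in Mock cells, from 6.57% to 7.66% at d0, from 4.48% to 7.22% at d3 and from 16.0% to 19.8% at d28. Because these copies weigh on any share of nuclear counts, the receptor genes are given below with and without them in the denominator. The 151 genes had 4137 counts in all, and of their 1812 values (151 genes in 12 samples) 403 or 22.2% were 0. Only 23 genes were counted in all 12 samples, and the median gene was counted in 9. Counts of a gene were scaled with edgeR's TMM factors to the mean effective library size, which gives the normalized counts used below. The median receptor gene had a mean normalized count of 1.64, against 8.68 for all 30037 genes tested. Taken gene by gene, replicates of the receptor genes were close to what counting alone would give. The chi-square over its degrees of freedom was 1.11 in Mock cells, 1.08 at d0, 1.09 at d3 and 1.03 at d28. The family sum differed between Mock replicates by more than counting error. Per 1000000 nuclear counts, the Wilson intervals of Mock replicate 1 (747 to 949) and Mock replicate 3 (453 to 632) did not touch.

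The label of closed chromatin was checked by the counts per length, summed over the 12 samples and divided by the RefSeq gene span. The receptor genes had a median of 3.43 counts per kb (quartiles 2.09 and 6.04). Cytosolic ribosomal protein genes, which are active in all cells, had a median of 61.7 counts per kb, and proteasome subunit genes had 15.2. The median of 8207 other protein-coding genes of like span (933 to 23288 bp) was 13.5, and 18.3% of these genes lay below the median of the receptor genes. The family was not low against every set, since the median of all 18439 protein-coding genes, which are mostly longer, was 5.16 and 39.2% of them lay below the receptor median. The 85 protein-coding genes of other kinds that lie nearest to the receptor genes had a median of 3.97, close to that of the receptor genes. Without the floor of 12 counts, 346 receptor genes with a known span had a median of 3.96 counts per kb. Other families were taken as silent in most cells outside their own tissue, and their expression was not tested here. They lay on both sides of the median of all protein-coding genes. The median was 6.65 counts per kb for 424 olfactory receptor pseudogenes (median span 937 bp). For 93 keratin-associated protein genes, which encode hair proteins, it was 8.16. For 24 bitter taste receptor genes it was 7.15, and for 21 beta-defensin genes 1.14. Among the chosen genes OR5AU1 on chromosome 14 was highest per length with 45 counts per kb over a span of 1199 bp, and OR9Q1 on chromosome 11, with a span of 157736 bp, was lowest with 0.108. The family was thus low against active genes and genes of like span, but not against its neighbours, and its counts differ from gene to gene partly by span, with a Spearman's rho of 0.3 between span and total count over the 151 genes.

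The neurons in which these receptors work have other marker genes, which were looked at as well. OMP, the olfactory marker protein, had 5 counts in the 12 samples together, RTP1, a chaperone that brings receptors to the membrane, had 15, and CNGA2, the channel subunit that opens upon odor signaling, had 23. GNAL, the G protein of odor signaling, and ADCY3, its adenylyl cyclase, had 315 and 308 counts, and both are expressed in other tissues too. All 5 of these markers were counted in each group, with a summed level of 101 to 120 per 1000000 nuclear counts in Mock cells, 124 to 161 at d0, 93.1 to 116 at d3 and 84.2 to 109 at d28. The embryonic kidney markers PAX2, EYA1, LHX1 and HOXA11 were counted in all samples, and their summed level was 159 to 199 in Mock cells, 181 to 221 at d0, 183 to 201 at d3 and 157 to 183 at d28. The blood cell markers PTPRC, CD79A, SPI1 and CD3E summed to 59.9 to 85.3, 78.9 to 95.3, 84.5 to 104 and 52 to 57.8 in the same order. An ATAC-Seq count over a gene is not its expression, so these levels name no cell type, and the part of such cells in the results was not tested.

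Summed over the family, the receptor genes took a share of nuclear counts in d0, d3 and d28 cells that lay within the range of the Mock samples. The 3 Mock samples stood at 842, 648 and 535 receptor counts per 1000000 nuclear counts (95% Wilson intervals 747 to 949, 571 to 736 and 453 to 632), a mean of 675 ± 155 (SD, n = 3). The d0 samples stood at 655, 700 and 671 (675 ± 23.2), the d3 samples at 598, 645 and 574 (605 ± 36.0) and the d28 samples at 701, 682 and 712 (699 ± 15.2, n = 3 each). Mock samples were spread more widely than those of any other group, with replicate 1 the highest and replicate 3 the lowest of all 12, so d0, d3 and d28 each lay within the Mock range. On the log2 scale the ratio to the Mock mean was 0.00, -0.16 and 0.05 for d0, d3 and d28 in turn. Against d0, the d3 samples were all lower (log2 ratio -0.16), and the d28 samples were all higher than those of d3 (0.21) and overlapped those of d0 (0.05). The raw sums were 267, 239 and 138 counts in Mock cells, 261, 247 and 255 at d0, 396, 381 and 359 at d3, then 783, 543 and 268 at d28, and they follow the depth of the samples. The intervals cover counting error only, since PCR copies of a fragment are not independent molecules. A change in the number of cells with an open receptor gene and a change in openness per cell cannot be told apart in bulk samples.

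The position of d28 turned on the denominator. When the nuclear copies of mitochondrial genes and ribosomal DNA were left out of it, the receptor genes stood at 873, 671 and 554 counts per 1000000 in Mock cells (699 ± 161), 706, 759 and 718 at d0 (728 ± 27.6), 645, 690 and 601 at d3 (645 ± 44.2), then 875, 813 and 854 at d28 (847 ± 31.9, SD, n = 3 each). On this scale all 3 d28 samples lay above all d0 and all d3 samples, with log2 ratios of 0.22 and 0.39, while they still overlapped the Mock samples, of which replicate 1 lay among them (log2 ratio 0.28). The d3 samples again lay below those of d0 (-0.17) and within the Mock range (-0.12). Without Mock replicate 1 the receptor share over all nuclear counts was 0.24 higher at d28 than in Mock cells on the log2 scale, and without Mock replicate 3 it was -0.09, so a single Mock library set the sign of this ratio. No p is given for these sums, since the genes were chosen with earlier results of the data in view.

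**Figure D1:**
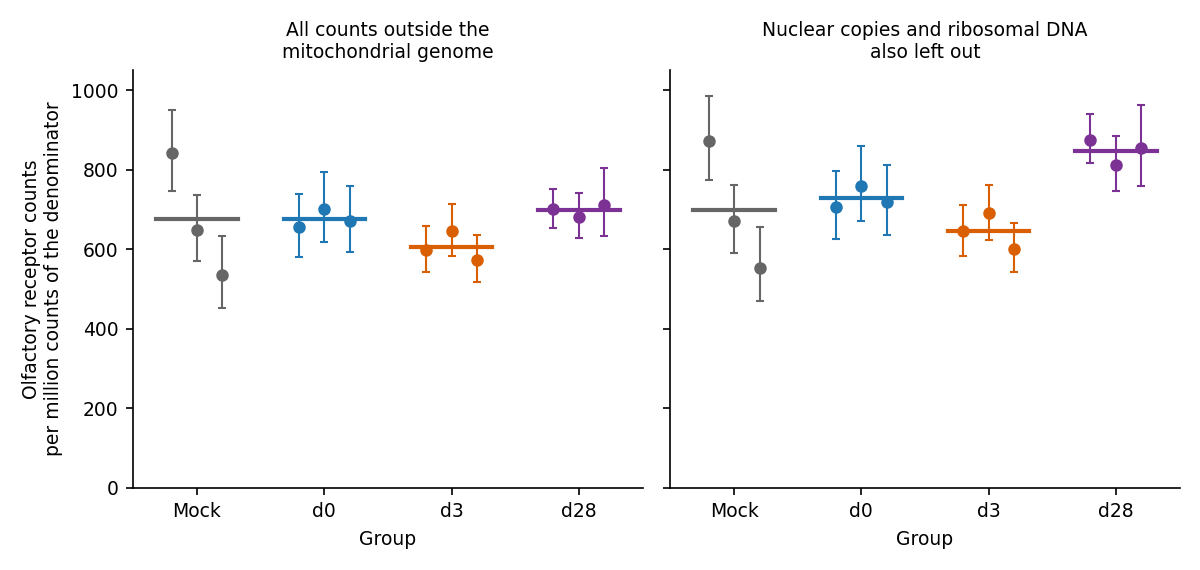
Summed counts of the 151 olfactory receptor genes per 1000000 counts, for each of the 12 samples by group, with 95% Wilson intervals for counting error and a horizontal line at the group mean. Left, per 1000000 of all counts outside the mitochondrial genome, where d28 (mean 699) sat within the Mock range. Right, with nuclear copies of mitochondrial genes and ribosomal DNA left out of the denominator, where the d28 samples (813 to 875) sat above all d0 and d3 samples and overlapped Mock.

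Active genes took another course, which is given for reference. With the copies left out, ribosomal protein genes stood at 6030 ± 108 counts per 1000000 in Mock cells, 6110 ± 98.3 at d0, 7400 ± 258 at d3 and 6140 ± 177 at d28 (SD, n = 3 each), so the group in which the receptor share was lowest was the group in which this share was highest. Per count on a ribosomal protein gene there were 0.147, 0.109 and 0.092 receptor counts in Mock cells, 0.118, 0.122 and 0.118 at d0, 0.0876, 0.0899 and 0.084 at d3, then 0.142, 0.137 and 0.135 at d28. By this ratio, which needs no denominator of all counts, d3 samples were below all others and d28 samples lay above all d0 samples and within the Mock range. The 79 olfactory receptor pseudogenes that reached 12 counts did not show the same order. Whether they lie in the same clusters as the receptor genes was not checked. With the copies left out they stood at 415 ± 32.3 in Mock cells, 449 ± 42.2 at d0, 414 ± 29.6 at d3 and 429 ± 53.3 at d28, and their samples overlapped in every pair of groups. The receptor genes below the floor of 12 stood at 228 ± 20.7, 207 ± 24.4, 178 ± 9.37 and 225 ± 5.21 per 1000000 of all nuclear counts (SD, n = 3 each), lowest at d3 as the chosen genes were. Their levels were not computed without the copies, which took 3.23% to 3.43% of this denominator in Mock cells and 16.0% to 19.8% at d28. Their d28 level therefore cannot be set beside the values without copies. Between d28 and d3, the 18 genes with 50 or more counts had a log2 ratio of 0.03, against 0.21 for all 151, and between d3 and d0 their ratio was 0.16, against -0.16. The limit of 50 applies to the sum over all 12 samples, to which d3 and d28 contribute most, so a gene that is high there reaches it more easily and these ratios are a description only.

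The genes were then split into their classes. With the copies left out, the 25 class I genes stood at 108 ± 45.9 counts per 1000000 in Mock cells, 119 ± 14.8 at d0, 113 ± 19.8 at d3 and 128 ± 13.3 at d28, and all pairs of groups overlapped. The 126 class II genes stood at 592 ± 122, 609 ± 37.2, 532 ± 29.1 and 720 ± 24.5, where the d28 samples (747, 699 and 714) were above those of d0 (571, 645 and 611) and of d3 (544, 554 and 499). By chromosome, 56 of the genes were on chromosome 11, 26 on chromosome 1, 14 on chromosome 14, 11 on chromosome 19 and 10 on chromosome 7. The levels by chromosome are per 1000000 of all nuclear counts, copies included, and were not computed without the copies. The copies took 6.57% to 7.66% of this denominator at d0 and 16.0% to 19.8% at d28, so they lower the d28 levels more. The 56 genes of chromosome 11 stood at 242 ± 79.3, 252 ± 8.69, 216 ± 28.8 and 231 ± 4.02 (Mock, d0, d3, d28). Their d28 samples lay below all d0 samples (log2 ratio -0.13), where the ratio of the other genes of chromosome 11 was -0.21. The 14 genes of chromosome 14 stood at 71.6 ± 8.42, 68.0 ± 22.4, 66.5 ± 9.21 and 61.3 ± 11.5. The 11 genes of chromosome 19 stood at 58.4 ± 20.5, 55.0 ± 7.52, 61.7 ± 4.69 and 74.6 ± 9.91. On chromosome 19 the d28 samples lay above all d0 samples (log2 ratio 0.44), where the ratio of its other genes was 0.05. The 26 genes of chromosome 1 stood at 94.7 ± 35.5, 99.7 ± 7.16, 74.8 ± 9.98 and 99.7 ± 11.0. The 10 genes of chromosome 7 stood at 46.5 ± 19.5 in Mock cells and at 72.0 ± 11.1, 53.9 ± 10.9 and 70.9 ± 10.2 at d0, d3 and d28, and Mock overlapped each of them. The SDs are over 3 samples each. The difference between classes or chromosomes was not tested.

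More receptor genes were counted in the later groups, which were also sequenced more deeply. At least 1 count was found for 115, 105 and 77 of the 151 genes in the Mock samples, for 111, 109 and 113 at d0, for 123, 127 and 123 at d3 and for 148, 140 and 118 at d28. When each sample was thinned to 248932 counts, the total of the shallowest sample without copies and ribosomal DNA, the expected number was 90.3 ± 14.5 in Mock cells, 95.6 ± 2.2 at d0, 87.2 ± 4.82 at d3 and 104 ± 2.07 at d28 (SD, n = 3 each). At equal depth the d3 samples were below all d0 samples, the d28 samples were above all d0 and d3 samples, and Mock replicate 1 (105.7) reached the d28 samples (102.0 to 106.0). Thinned over all nuclear counts the numbers were 90.3 ± 14.4, 93.8 ± 2.16, 85.9 ± 4.71 and 96.5 ± 1.72, and there the d28 samples (95.3 to 98.5) overlapped those of d0 (91.5 to 95.8). No gene was at 0 in all 3 d28 samples and 1 was so at d3, whereas 7 were at d0 and 9 in Mock cells. The choice of genes works toward this order, since the sum of 12 is reached mostly through the deeper d28 and d3 samples. Of all 347 genes without the floor, 140 ± 18.9, 138 ± 4.6, 127 ± 3.27 and 146 ± 1.76 were expected after thinning over all nuclear counts (Mock, d0, d3, d28). At these depths a count of 0 allows up to 3 counts, or between 2.69 and 11.6 per 1000000 nuclear counts in a sample.

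**Figure D2:**
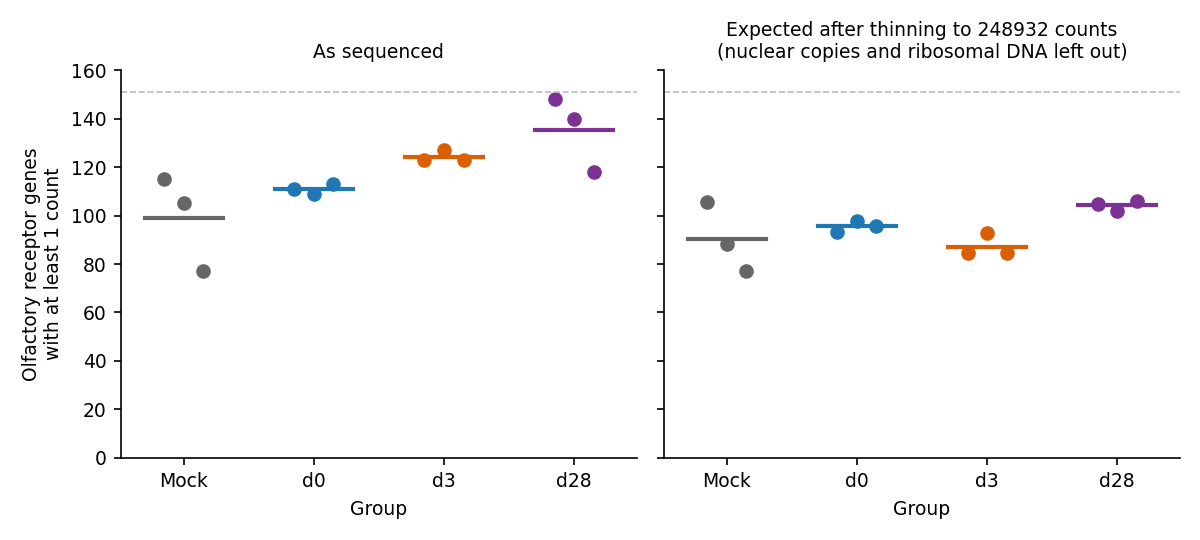
Number of the 151 olfactory receptor genes with at least 1 count in each sample by group, with lines at the group means and a dashed line at 151. Left, as sequenced, rising from Mock (77 to 115) to d28 (118 to 148); right, the number expected after thinning every sample to 248932 counts, where the means lay between 87.2 and 104.

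Gene by gene, no receptor gene passed an adjusted p of 0.05 in any of the 6 contrasts by edgeR's quasi-likelihood test, and DESeq2 gave all 151 an adjusted p of NA. Over all 30037 genes, 0.523%, 1.22% and 1.28% passed at d0, d3 and d28 against Mock, 0.819% at d3 against d0, and 1.17% and 0.333% at d28 against d0 and d3. Scaled by library sizes only, which leaves the mitochondrial share in the scale, 18, 7 and 8 receptor genes passed as lower at d28 than in Mock, d0 and d3 cells, which is 11.9%, 4.64% and 5.3% of them against 58%, 40.8% and 53.4% of all genes. On this scale 1 passed as higher at d28 than at d3 (0.662%, against 0.243%). With TMM, the lowest adjusted p of a receptor gene was 0.434, 0.198, 0.108, 0.207, 0.193 and 0.21 in these contrasts. At these counts only large changes could have passed, since the median SE of a log2 fold change lay between 0.86 and 1.13 over the genes counted in both groups.

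At an unadjusted p under 0.05, 4 receptor genes were higher and 4 lower at d0 than in Mock cells, which is 2.65% each way against 4.51% and 4.13% of all genes. At d3 against Mock, 2 were higher and 1 lower (1.32% and 0.662%, against 6.59% and 4.02% of all genes). At d28 against Mock, 6 were higher and 1 lower (3.97% and 0.662%, against 6.48% and 5.08%). At d3 against d0, 6 were higher and 4 lower (3.97% and 2.65%, against 6.5% and 4.24%), and at d28 against d0, 10 were higher and 0 lower (6.62%, against 6.66% and 5.1%). At d28 against d3, 8 were higher and 0 lower (5.3%, against 3.75% and 4.52%). All these shares were near or below the background. The share higher at d28 than at d3 (5.3%, against 3.75%) was slightly above it, on only 8 genes. DESeq2 called 0, 1, 1, 3, 3 and 4 receptor genes in both directions together at this unadjusted level. The contrasts share samples and so do not stand for separate evidence.

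The median log2 fold change of the 151 genes against Mock was 0.20, -0.14 and 0.33 for d0, d3 and d28 in turn, while that of all genes tested was -0.01, 0.05 and 0.05. It was -0.09 at d3 against d0, 0.20 at d28 against d0 and 0.41 at d28 against d3, beside 0.04, 0.06 and 0.00 for all genes. Where a gene had no count in a whole group, its fitted value depends on a prior, and with such genes set to the bound that 3 counts allow, the medians were 0.02, -0.14 and 0.26 against Mock and -0.02, 0.19 and 0.41 in the other contrasts. The median at d0 thus rested on genes with an empty group. Without Mock replicate 1 the medians against Mock were 0.43, 0.31 and 0.64, and without Mock replicate 3 they were -0.07, -0.34 and 0.10, so the sign at d0 and d3 depended on single Mock libraries. Fitted values above 0 were found for 83, 69 and 99 of the 151 genes at d0, d3 and d28 against Mock (55.0%, 45.7% and 65.6%, against 49.5%, 53.8% and 54.0% of all genes), for 69 at d3 against d0 (45.7%, against 53.4%), and for 90 and 105 at d28 against d0 and d3 (59.6% and 69.5%, against 54.5% and 50.4%). At d0 and Mock the samples did not overlap for 7 genes higher and 9 lower at d0 (4.64% and 5.96%, against 6.85% and 6.51% of all genes). At d3 they did not overlap with Mock for 8 higher and 7 lower (5.3% and 4.64%, against 10% and 5.8%), and with d0 for 7 higher and 8 lower (4.64% and 5.3%, against 10.1% and 6.17%). The groups did not overlap, with d28 higher, for 14 genes or 9.27% against Mock (9.57% of all genes), 17 or 11.3% against d0 (10.7%) and 11 or 7.28% against d3 (6.3%). They did not overlap, with d28 lower, for 5 or 3.31% against Mock (6.95% of all genes), 2 or 1.32% against d0 (6.93%) and 4 or 2.65% against d3 (7.35%).

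**Figure D3:**
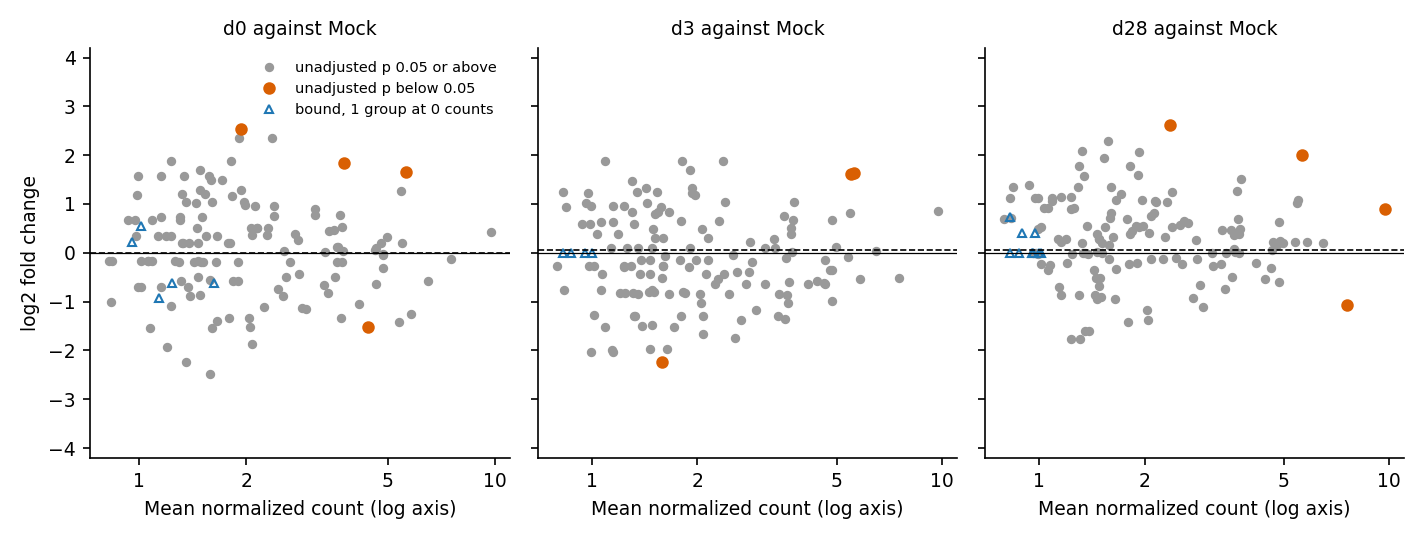
log2 fold change of each olfactory receptor gene against Mock, by its mean normalized count over the 12 samples on a logarithmic x axis, at d0, d3 and d28. Orange points had an unadjusted p under 0.05, open triangles are genes with no count in 1 of the groups, drawn at the bound that 3 counts allow (at 0 where it gives no direction), and the dashed line is the median of all 30037 genes tested. The points lie on both sides of 0, and none passed an adjusted p of 0.05. Fitted values above 0 made up 55.0%, 45.7% and 65.6% of the receptor genes at d0, d3 and d28, against 49.5%, 53.8% and 54.0% of all genes.

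The receptor gene that came nearest to a call was OR2A5 (ENSG00000221836), a class II gene of the receptor cluster on chromosome 7 (GRCh38.p14, start 144048948, end 144058845). It had 1, 2 and 1 counts in the Mock samples, 7, 4 and 4 at d0, 12, 6 and 6 at d3, then 23, 7 and 4 at d28. Normalized, this was 1.49, 2.56 and 1.84 in Mock cells (1.96 ± 0.547), 8.71, 5.63 and 5.15 at d0 (6.50 ± 1.94), 9.28, 5.17 and 4.79 at d3 (6.41 ± 2.49), then 12.1, 4.93 and 5.82 at d28 (7.62 ± 3.92, SD, n = 3 each). All 9 samples with MLL-AF4 were above all 3 Mock samples, and the 3 later groups overlapped one another. The log2 fold change against Mock was 1.65 (SE 0.75) at d0, 1.63 (SE 0.70) at d3 and 2.0 (SE 0.66) at d28, and edgeR's adjusted p was 0.504, 0.338 and 0.108. The 3 contrasts share the Mock samples, which held 4 counts in all.

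OR4D1 on chromosome 17 (start 58148384, end 58159585) had its highest level at d3. Its normalized count was 0.00, 5.12 and 3.67 in Mock cells, 7.47, 1.41 and 1.29 at d0, 10.8, 6.03 and 11.2 at d3, then 6.85, 6.33 and 5.82 at d28. The d3 samples were above all Mock samples (log2 fold change 1.61, SE 0.59, edgeR's adjusted p 0.198) and overlapped those of d0, where replicate 1 was high (1.40, SE 0.54, adjusted p 0.248). OR2J2, which like OR2H2 lies near the MHC genes on chromosome 6, stood at 2.98, 3.84 and 1.84 in Mock cells, at 0.00, 0.00 and 1.29 at d0, at 1.55, 0.00 and 0.00 at d3, then 3.16, 2.81 and 1.45 at d28. It was lower at d3 than in Mock cells without overlap (-2.23, SE 1.11, adjusted p 0.457), on 2 counts against 6. OR8A1 on chromosome 11 was also among the lower genes at d3, with 8 counts against 11 in Mock cells (-1.30, SE 0.71, adjusted p 0.526), and its samples overlapped.

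OR52K1 on chromosome 11 (start 4482646, end 4493497), the class I gene with the highest normalized count, had its lowest level at d28. It stood at 13.4, 8.96 and 7.35 in Mock cells, 13.7, 4.22 and 9.01 at d0, 8.51, 4.31 and 7.98 at d3, then 5.27, 4.93 and 2.91 at d28. The d28 samples were below all Mock samples, with a log2 fold change of -1.06 (SE 0.49) and an adjusted p of 0.354. OR56A4, also of class I, stood at 1.49, 6.40 and 3.67 in Mock cells and at 3.16, 0.00 and 0.00 at d28, which overlap, and its log2 fold change was -1.37 (SE 0.85, adjusted p 0.558). OR8G5, at the sum of 12 that the rule asks for, had 0 counts in Mock cells and at d3, 2 at d0 and 10 at d28, of which 7 were in replicate 1. It reached the sum of 12 only through d28, so its higher level there is partly set by the choice of genes. It was at least 1.66-fold higher at d28 than in Mock cells, with 3 counts over the group as the floor, and its adjusted p was 0.271.

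At d0, OR8D1 of the chromosome 11 cluster near OR8G5 had 13 counts against 3 in Mock cells, all 3 of them in replicate 2 (normalized 0.00, 3.84 and 0.00 in Mock cells and 2.49, 9.85 and 5.15 at d0). Its log2 fold change was 1.84 (SE 0.85, adjusted p 0.504) and the groups overlapped. OR1E1 on chromosome 17 had 5 counts in Mock cells and 0 at d0, at least 1.91-fold lower (adjusted p 0.434). OR2G6 on chromosome 1 had 4 counts in Mock cells, all in replicate 2, and 0 at d0, at least 1.53-fold lower (adjusted p 0.504).

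Between d3 and d0, where AF4-MLL was added to MLL-AF4, OR52E5, a class I gene, had 0 counts at d0 and 10 at d3, of which 7 were in replicate 2, at least 2.06-fold higher (adjusted p 0.207). OR11H4 on chromosome 14 had 7 counts at d0 and 1 at d3 (-3.01, SE 1.18, adjusted p 0.26). OR51E1, a class I gene also known for its expression in prostate, had 3, 2 and 3 counts at d0 and 0, 0 and 2 at d3 (-2.44, SE 1.05, adjusted p 0.331). Both were lower in all d3 samples than in any d0 sample.

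Of the remaining genes with high counts, some had groups that did not overlap, and none passed the test. OR1I1 on chromosome 19 (start 15082211, end 15092970) had the highest mean, with normalized counts of 8.93, 6.40 and 3.67 in Mock cells, 9.96, 7.03 and 9.01 at d0, 13.9, 12.9 and 8.78 at d3, then 12.7, 12 and 11.6 at d28. Its d28 samples were above all Mock samples (log2 fold change 0.90, SE 0.44, adjusted p 0.404) and above all d0 samples (0.48, SE 0.39, adjusted p 0.709). OR10H5, on the same chromosome, stood at 5.96, 6.40 and 5.51 in Mock cells, 3.73, 2.81 and 0.00 at d0, 6.19, 3.45 and 7.19 at d3, then 7.38, 4.22 and 11.6 at d28, and its d0 samples lay below all Mock and all d28 samples (d28 against d0 1.64, SE 0.64, adjusted p 0.229). OR7C1 lies on the minus strand and shares with OR7A5 the end coordinate of its RefSeq span (14835185), where transcription starts, and all its upstream bases, so that reads of this pair may have been split between them. It stood at 4.35 ± 1.81, 4.31 ± 1.30, 3.51 ± 0.452 and 7.17 ± 1.33 (SD, n = 3 each, in the order Mock, d0, d3, d28), and its d28 samples (5.8 to 8.44) lay above all d0 and all d3 samples.

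OR2V2 on chromosome 5 stood at 7.06 ± 5.04 in Mock cells, where replicate 3 was high (12.9), and at 4.35 ± 0.571, 6.75 ± 0.512 and 7.77 ± 0.938 at d0, d3 and d28 (SD, n = 3 each). OR2H2 on chromosome 6 ranged from 1.49 to 11.5 within Mock cells and from 2.91 to 11.6 within d28. The class I genes OR56A1 and OR52A1, the latter a neighbour of the beta-globin genes, had d28 means of 6.10 ± 0.659 and 4.91 ± 1.73 against Mock means of 2.84 ± 2.99 and 4.49 ± 1.27 (SD, n = 3 each). OR4K2 on chromosome 14 had group means from 3.84 to 6.57, OR4D9 on chromosome 11 from 3.31 to 6.52, and OR2M4, the highest of chromosome 1, from 3.95 to 5.53. For 32 of the 151 genes, with 756 of the 4137 counts, the RefSeq span overlaps that of another gene, as that of OR56A1 does with OR56A3, and their reads may belong to either.

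**Figure D4:**
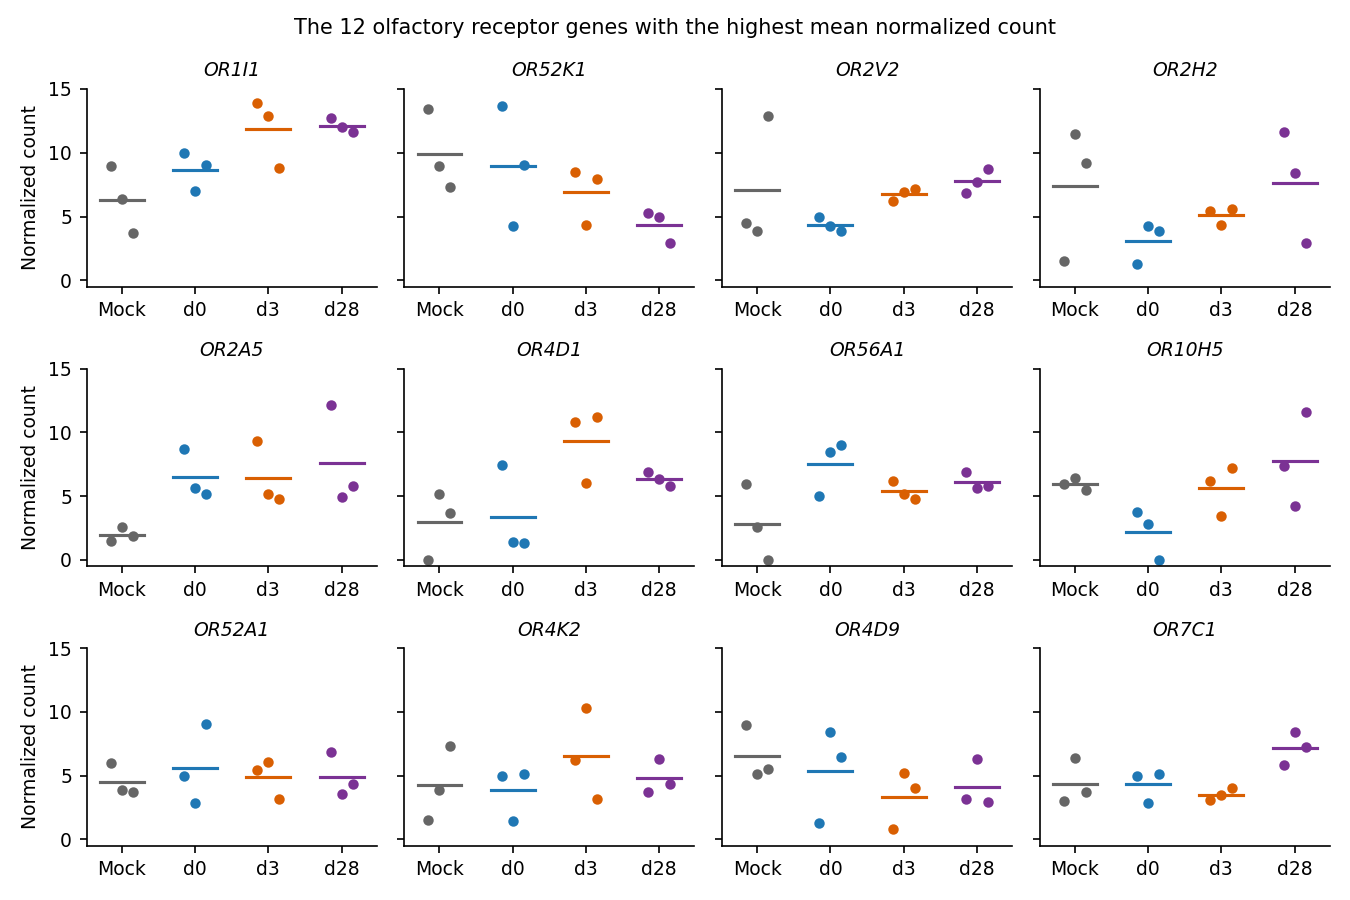
Normalized counts of the 12 olfactory receptor genes with the highest mean over all samples, with 1 panel per gene, 1 point per sample and a line at the group mean, by group. OR2A5 was lower in the 3 Mock samples (1.49 to 2.56) than in all other samples (4.79 to 12.1), OR52K1 was lowest at d28 (2.91 to 5.27), and most of the others overlapped between groups.

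The genes that act around the receptors were tested in the same fit. Of the odor signaling genes (11 listed, 10 tested), 0 passed in any contrast, and neither did any of the 3 tested genes of receptor transport, the 6 genes known for receptor gene choice or the 11 heterochromatin genes. Of these 30 genes, 0 had an unadjusted p under 0.05 and a higher value at d0 than in Mock cells and 1 a lower one, with 4 and 1 at d3 and 2 and 1 at d28 against Mock. Over all genes the shares were 4.51% and 4.13%, 6.59% and 4.02%, then 6.48% and 5.08%. The numbers were 2 and 0 at d3 against d0, 1 and 3 at d28 against d0, and 0 and 3 at d28 against d3. Over all genes these shares were 6.5% and 4.24%, 6.66% and 5.1%, then 3.75% and 4.52%. Genes found only in these contrasts are not listed here. All 7 of the genes so found against Mock are named here, chosen after their values were seen. LHX2, a homeodomain factor of receptor choice, had normalized counts of 2.82 ± 2.0 in Mock cells, 4.39 ± 1.61 at d0, 6.21 ± 1.96 at d3 and 8.79 ± 1.26 at d28 (SD, n = 3 each), with a log2 fold change of 1.47 (SE 0.60, edgeR's adjusted p 0.26) at d28 against Mock. EBF1, the other transcription factor of this list that was found, had a log2 fold change of 0.81 (SE 0.39, adjusted p 0.434) at d3 against Mock. GNG13, a G protein subunit of chemosensory cells, had one of -1.47 (SE 0.69, adjusted p 0.504) at d0. Among the heterochromatin genes, LMNB1, a lamin that tethers silent chromatin to the nuclear envelope, stood at 92.0 ± 4.38, 87.5 ± 9.61, 71.7 ± 4.71 and 63.8 ± 13.7 (SD, n = 3 each), with log2 fold changes of -0.36 (SE 0.16, adjusted p 0.34) at d3 and -0.47 (SE 0.16, adjusted p 0.113) at d28 against Mock. TRIM28, a corepressor that recruits the methyltransferase SETDB1, had values in the other direction, 0.54 (SE 0.24, adjusted p 0.37) at d3 and 0.60 (SE 0.24, adjusted p 0.245) at d28. EHMT2, a methyltransferase of histone H3 lysine 9, had 0.85 (SE 0.36, adjusted p 0.317) and the HP1 gene CBX5 had 0.51 (SE 0.23, adjusted p 0.401) at d3 against Mock.

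KMT2A, the source of the MLL part of both transgenes, was higher than in Mock cells by a log2 fold change of 1.07 (SE 0.21, edgeR's adjusted p 0.000174) at d3 and 1.41 (SE 0.20, adjusted p 8.68e-10) at d28, and it was 0.45 (SE 0.25, adjusted p 0.618) at d0. It was also higher at d28 than at d0 (0.96, SE 0.18, adjusted p 2.87e-05), although the labels give these groups the same genotype. It was 0.34 (SE 0.14, adjusted p 0.468) at d28 against d3. Scaled by library sizes only, no longer past the threshold were d3 and d28 against Mock (0.69 and 0.01) and d28 against d0 (0.02). Its normalized counts were 29.8, 26.9 and 31.2 in Mock cells, 44.8, 43.6 and 30.9 at d0, 54.9, 62.0 and 67.1 at d3, then 89.6, 67.5 and 68.4 at d28. AFF1 passed in no contrast, with 52.2 ± 10.4, 68.9 ± 8.74, 61.3 ± 6.27 and 64.8 ± 3.10 (SD, n = 3 each). Transgene reads and reads of the gene itself cannot be told apart in a count per gene.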

How the data were processed

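The authors prepared ATAC-Seq libraries from freshly isolated nuclei with the Nextera transposase and deposited 1 table of raw counts of reads per gene, whole numbers without normalization. Per the labels, bcl2fastq, Bowtie2, HTSeq and GRCh38 were used. Versions, the interval counted per gene, strand, the read shift for the transposase and duplicate removal are not given in the sources used here. The labels also mention an RNA purification, and name doxycycline for every sample without saying which received it.

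The table was analysed with edgeR 4.0.16 in R 4.3.3 (TMM factors, quasi-likelihood F test, all 12 samples, Benjamini-Hochberg over the 30037 genes with a count sum of 12 or more); DESeq2 1.42.0 was an alternative. The script was tested on simulated data. Receptor shares are sums over all counts outside the 37 mitochondrially encoded genes. Nuclear copies (376 entries) and ribosomal DNA (6 entries) were left out as an alternative. Spans and promoters came from RefSeq, GRCh38.p14, matched by symbol (151 of 151 genes with a span). Wilson intervals are at 95% and the floor is 3 counts. Every pair of replicates was further apart than sampling alone would put it over all nuclear genes, so all were kept.

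The receptor genes, the gene lists and the tests were chosen with earlier results of these data known. Named are the 12 genes with the highest mean normalized count, the highest of each class and of each chromosome with at least 10, every gene past adjusted p 0.05, and the 2 higher and 2 lower with the smallest p at d0, d3 and d28 against Mock and at d3 against d0. Of the fixed lists of other genes the rule named those past adjusted p 0.05 (0 genes) and KMT2A and AFF1, and 7 genes with an unadjusted p under 0.05 against Mock were added after their values were seen. A gene of the kidney list and a gene of the blood list are not reported here, and the sums leave them out. With 3 replicates, p-values measure the spread between cultures of 1 line.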

Additional observations from a re-analysis of the deposited data

How the results depend on the processing

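No olfactory receptor gene passed an adjusted p of 0.05 in any contrast under TMM, RLE factors, TMM without mitochondrial genes and copies, the 3 other filters, the fits to the 2 groups compared alone, the replicate block and each left-out replicate (0 genes each), and DESeq2 gave only NA for them. With library sizes only, which leave the mitochondrial share in the scale, 18 passed at d28 against Mock (58% of all genes passed as lower there), 7 at d28 against d0 (40.8%) and 9 at d28 against d3 (53.4%), all lower but 1 at d28 against d3, and the medians became -0.23, -0.51 and -0.97 at d0, d3 and d28 against Mock, -0.65 at d28 against d0 and -0.54 at d28 against d3, when the median of all genes was itself -0.46, -0.33, -1.30, -0.86 and -0.98. By this scaling OR52K1 (-2.44) and OR56A4 (-2.71) passed at d28 against Mock, and KMT2A no longer did (0.69 at d3 and 0.01 at d28 against Mock, 0.02 at d28 against d0). filterByExpr kept 2 of the receptor genes and gave medians of -0.10, -0.24 and -0.20 for d28 against Mock, d0 and d3. With no filter the median at d28 against d0 was 0.24, with DESeq2 that at d28 against d3 was 0.50, and for the 18 genes with 50 or more counts it was 0.00 at d3 against d0, 0.41 at d28 against d0 and 0.31 at d28 against d3. The replicate numbers did not pair the samples (mean correlations of the deviations between -0.072 and 0.0336 over 8317 genes). With the replicate block the medians were 0.12, -0.13 and 0.35 against Mock and -0.04, 0.23 and 0.39 in the other contrasts, and the genes called over the whole table were 150, 334, 354, 234, 317 and 91.

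The log2 ratio of the summed counts moved most with all counts as the denominator, to -0.39, -0.43 and -1.04 at d0, d3 and d28 against Mock, -0.05 at d3 against d0, -0.65 at d28 against d0 and -0.60 at d28 against d3. With TMM-normalized counts it was 0.31, 0.24 and 0.36 at d28 against Mock, d0 and d3. Without nuclear copies and ribosomal DNA it was 0.22 at d28 against d0 and 0.39 at d28 against d3. For the genes with 50 or more counts it was 0.16 at d3 against d0, 0.19 at d28 against d0 and 0.03 at d28 against d3. Leaving out genes that overlap another gene, genes with near-identical upstream bases or the count floor (all 3 chosen after the data were seen) moved no ratio by more than the replicate SD, nor did leaving out the 5 highest genes or adding gene/pseudogene entries.

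Over left-out replicates the ratio ranged from -0.14 to 0.19, from -0.30 to 0.03 and from -0.09 to 0.24 against Mock (d0, d3, d28), from -0.21 to -0.12 at d3 against d0, from 0.03 to 0.08 at d28 against d0 and from 0.17 to 0.25 at d28 against d3. The median ranged from -0.07 to 0.43, from -0.34 to 0.31 and from 0.10 to 0.64 against Mock, from -0.19 to -0.05 at d3 against d0, from 0.15 to 0.34 at d28 against d0 and from 0.37 to 0.50 at d28 against d3. That of OR2G6 at d0 against Mock ranged from -4.67 to 0.00, the latter without Mock replicate 2, which held its only Mock counts. Single libraries also moved other fold changes by over 1.5 times. OR8D1 at d0 was 5.58 without Mock replicate 2, and OR4D1 at d3 against Mock was 1.05 without Mock replicate 1 and 2.44 without Mock replicate 2, and against d0 2.70 without d0 replicate 1. OR2J2 was -4.60 without d3 replicate 1, and OR8A1 was -0.76 without Mock replicate 1, -2.04 without d3 replicate 1 and -0.74 without d3 replicate 3. OR56A4 was -0.70 without Mock replicate 2, -4.92 without d28 replicate 1 and -0.77 without d28 replicate 2. Against d0, OR11H4 was -4.65 without d3 replicate 2 and OR51E1 was -4.83 without d3 replicate 3. The alternative without receptors of near-identical protein was not run. With a median of 21 counts per receptor gene, the median SE of 0.86 to 1.13 log2 units means that small changes of single genes were not detectable at this depth.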
